A study of Danio rerio with 10 samples.

Results

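Zebrafish embryos that lacked both dact genes (dact1-/-;dact2-/-) were compared directly with embryos that lacked gpc4 (gpc4-/-), without wildtype embryos in the fit. The comparison used 6 of the 10 embryos of a single-cell RNA sequencing experiment, 3 of each mutant genotype, and the other 4 were wildtype. Embryos were dissociated whole, and each is 1 library and 1 replicate. The 6 embryos were chosen by their genotype label, and unique molecular identifiers (UMIs, each counted as 1 captured RNA molecule) of their quality-controlled cells were summed per embryo. This left 6376 cells of dact1/2 mutants and 4966 cells of gpc4 mutants, together 11342 of 16837 cells of the series.

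All embryos carry the strain label Tubingen, although the methods derive the lines from Tubingen or AB fish, and no treatment is labelled. The labels place them at the 3 somite stage, whereas the methods place them at 4 somites. The dact1/2 mutants descend from fish injected with CRISPR guides against dact1 (exon 2) and dact2 (exon 4), and a premature stop results in both genes. The gpc4 mutants carry gpc4hi1688Tg, an insertional allele obtained from a stock centre. Mutants were picked by their shortened body axis, and single embryos could not be genotyped. Whether the embryos of a genotype came from the same clutch is not given in the sources used here.

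Dact proteins are cytoplasmic scaffolds that bind Dishevelled, the hub of the Wnt pathway, and they act in both its β-catenin and its planar cell polarity branch. Gpc4 is a glypican, a heparan sulfate proteoglycan held at the cell surface by a lipid anchor, where it binds Wnt ligands. Loss of both dact genes together, or of gpc4, disturbs the convergence and extension of the zebrafish body axis and changes the shape of the face. The comparison asks which RNAs separate a pair of genotypes with a similar body shape.

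Total UMIs per embryo ranged from 12129138 to 26475500 for the dact1/2 genotype and from 10388568 to 18296357 for gpc4, with median UMIs per cell of 4811 to 5914 and 4308.5 to 7736. Pairs of libraries shared at most 3 cell barcodes. Droplets of low complexity (log10 genes at most 0.8 times log10 UMIs) held 35.1% of the UMIs of dact1/2 mutant replicate 1 and 32.6% of those of gpc4 mutant replicate 1, against 2.12% to 7.10% in the other mutants. A cluster of cells led by the muscle genes myl10, actc1b and myl13 drew 426 of its 607 cells from gpc4 mutant replicate 3. At a higher resolution of clustering, 570 cells, 390 of them from this embryo, formed a cluster led by rrm2, thy1 and rpl26. No marker of a cell class was among its 10 leading genes. Muscle genes then led an adaxial-like cluster, with 55 of 242 cells from this embryo, so muscle genes do not describe most of its cells in that group. Separate fits left out the low-complexity droplets or the cluster of 607 cells. All 36 called genes that are named by rule below kept their call in both. Markers of all 20 cell classes examined were detected, as the label of whole embryo asks. The unit of a level is CPM, which is UMIs of that gene per 1000000 UMIs summed from the embryo. Because whole embryos were summed, fewer cells of a type and less RNA per cell cannot be told apart in these values.

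The 3 targeted genes were examined first. RNA of gpc4 (ENSDARG00000015472) stood at 41.4, 58.1 and 48.0 CPM in the dact1/2 mutants and at 15.2, 17.3 and 13.5 CPM in the gpc4 mutants. The groups were far apart, and the 4 wildtype embryos, at 50.5 to 68.3 CPM, lay with the dact1/2 mutants. The difference was 3.30-fold (log2 1.72 ± 0.13 SE, adjusted p = 0.0015).

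The dact1 RNA (ENSDARG00000101635) was scarce and was counted 53, 49 and 34 times in the dact1/2 mutants and 88, 80 and 69 times in the gpc4 mutants. These counts gave 2.00, 2.43 and 2.80 CPM against 4.81, 5.32 and 6.64 CPM, again without overlap, and wildtype embryos held 5.57 to 6.44 CPM. The log2 difference was −1.17 ± 0.21, with an adjusted p of 0.062. The call was lost when any single embryo other than gpc4 mutant replicate 2 was left out, with differences of −1.03 to −1.26 and adjusted p-values of 0.107 to 0.192 for the 5 fits that lost it.

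RNA of dact2 (ENSDARG00000056986), the more abundant of the pair, did not follow the genotype. It stood at 34.5, 51.1 and 49.8 CPM in dact1/2 mutants, 47.3, 54.5 and 53.4 CPM in gpc4 mutants and 40.8 to 70.4 CPM in wildtype embryos, and the ranges overlapped. Its log2 difference was −0.15 ± 0.13 (adjusted p = 0.691). Counts per gene do not show whether the lesion was present, so the level of dact2 RNA checks nothing about it. The labels are therefore checked by gpc4 and, with less certainty, by dact1.

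**Figure D1:**
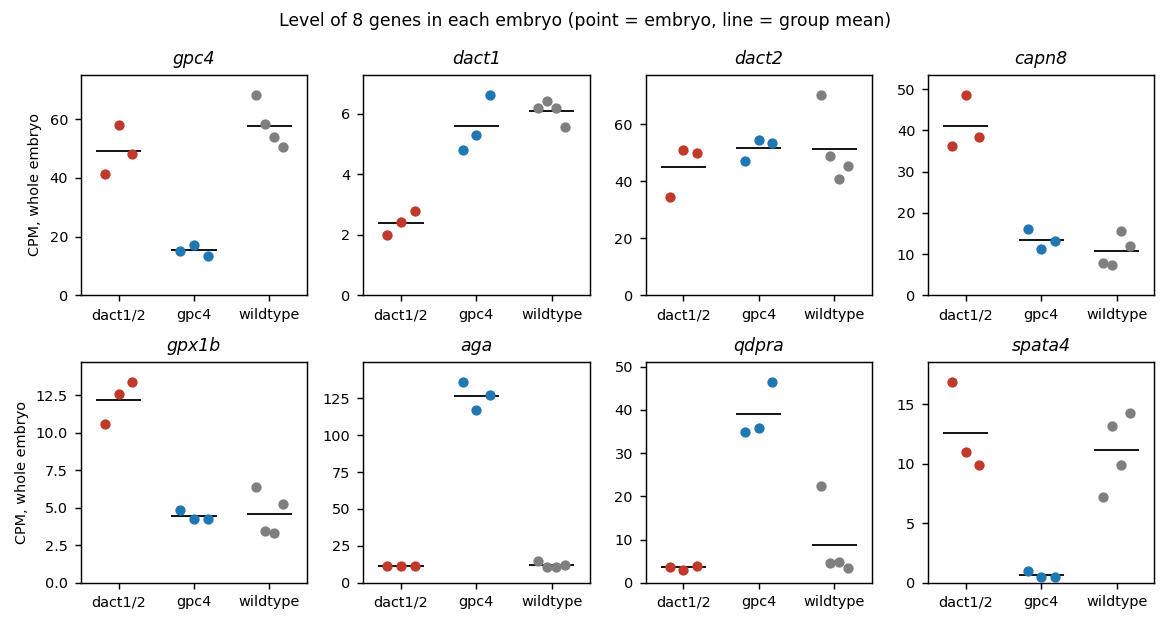
CPM of gpc4, dact1, dact2, capn8, gpx1b, aga, qdpra and spata4 in each embryo (points; horizontal lines are group means), with dact1/2 mutants, gpc4 mutants and, for reference, wildtype embryos side by side; each vertical axis starts at 0. The gpc4 level is at 13.5 to 17.3 CPM in the 3 gpc4 mutants and at 41.4 to 58.1 CPM in the 3 dact1/2 mutants, dact2 overlaps, and aga is above 100 CPM in the gpc4 mutants only.

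Of 14499 genes tested, 193 (1.33%) were called, that is, their adjusted p was under 0.1 and their log2 fold change beyond 0.58 in either direction. Of these, 100 (0.69% of the genes tested) were higher in dact1/2 mutants and 93 (0.641%) were higher in gpc4 mutants, while the median over all genes was −0.008. Without regard to the test, 862 genes (5.95%) had every dact1/2 mutant above every gpc4 mutant, and 1557 (10.7%) had the reverse. The wildtype embryos, which played no part in the test, overlapped the range of the dact1/2 mutants alone for 68 of the 193 genes, that of the gpc4 mutants alone for 51, that of both for 63 and neither for 11. Wildtype replicate 1 stood apart from the other wildtype embryos for many genes, and without it these counts were 89, 51, 10 and 43. In a fit of all 10 embryos only 40 genes were called between the mutants, each of them among the 193.

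The most clearly separated gene of the whole table was aga (ENSDARG00000004889), which encodes aspartylglucosaminidase, a lysosomal enzyme that removes sugar chains from asparagine. It stood at 136, 117 and 127 CPM in the gpc4 mutants and at 11.5, 11.1 and 11.5 CPM in the dact1/2 mutants. Wildtype embryos, at 10.4 to 15 CPM, were at the level of the dact1/2 mutants. The difference was 10.8-fold (log2 −3.43 ± 0.15, adjusted p = 8.44e-05). The gene qdpra, which regenerates the cofactor tetrahydrobiopterin, followed at 35.0, 35.8 and 46.5 CPM in gpc4 mutants and 3.63, 3.07 and 3.96 CPM in dact1/2 mutants (log2 −3.40 ± 0.19, adjusted p = 0.000331). Wildtype replicate 1 held 22.3 CPM of qdpra and the other wildtype embryos 3.53 to 4.74 CPM.

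Both aga and qdpra lie on chromosome 14, the chromosome of gpc4, and so did a larger share of the called genes than on any other chromosome. A chromosome could be given to 13211 of the tested genes (91.1%) and to 160 of the 193 called genes (82.9%). Chromosome 14 had 26 of its 493 tested genes called, or 5.27%, compared with 134 of 12718 (1.05%) on the other 24 chromosomes, where the shares lay between 0.14% and 1.99%. The 26 genes were split between both directions, 12 higher in dact1/2 mutants and 14 higher in gpc4 mutants. Chromosome 13, which carries dact2, had 6 of 527 genes called (1.14%), and chromosome 17, which carries dact1, had 5 of 511 (0.978%).

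The same order was seen without the test. On chromosome 14 the mutants did not overlap for 28.0% of the genes, compared with 11.8% to 21.98% on the others. Chromosome 14 also held the highest share of called genes under each of the 19 alternative settings, with 1.62% to 9.94% against 0.197% to 3.45% on the other chromosomes together. Neighbouring genes are not independent of each other, and no test was made of this share.

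**Figure D2:**
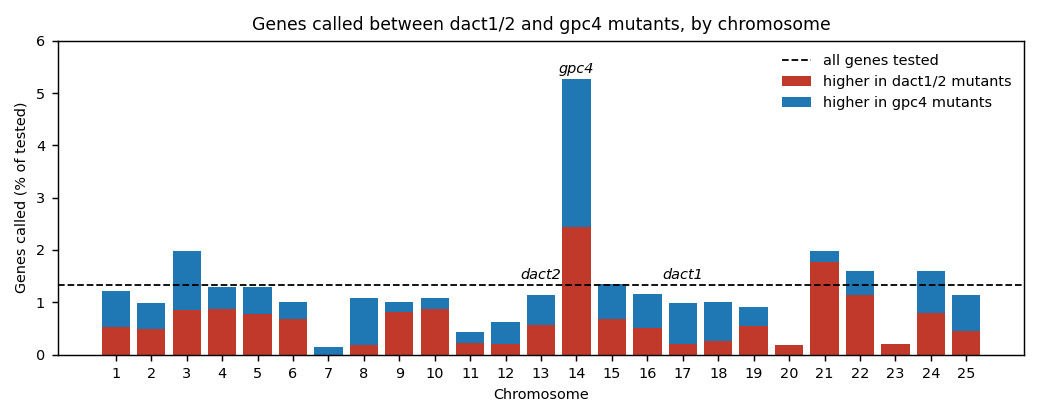
Percentage of the tested genes of each chromosome that were called, stacked by direction (higher in dact1/2 mutants or in gpc4 mutants); the dashed line marks the 1.33% called among all tested genes, and the chromosomes of the targeted genes are labelled. Chromosome 14 reaches 5.27%, and the others stay at or below 1.99%.

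The called genes of chromosome 14 lay along much of its length. Among the tested genes within 100 places of gpc4 in gene order 9 of 201 were called (4.48%), and further away 17 of 292 (5.82%). With a window of 50 places 6 of 101 were called within it (5.94%), and 5.1% beyond it. Both windows count gpc4 itself among the called genes near it, so these shares do not show more calls among its neighbours. The gene fgf13a, an intracellular FGF-related protein of neurons, was 20 genes from gpc4 and lower in dact1/2 mutants (log2 −1.92), and aga and spata4 were 85 and 83 genes from it. All 6 called genes of this chromosome with an absolute log2 difference above 2 (si:rp71-46j2.7, spata4, aga, fgfrl1b, qdpra and sept8b) lay on the same side of gpc4, between 26 and 167 genes away. These 6 were picked out after their values were seen. Uncalled differences of this size lay on both sides. Examples are cyp4v7 (log2 −3.38) and fam149a (−2.01) on the other side, and rxfp1 (2.30) and rpl26 (−2.06) on the same side.

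RNA of spata4, named for its expression in spermatogenesis, was counted at 16.9, 11.0 and 9.89 CPM in dact1/2 mutants but at 0.984, 0.465 and 0.481 CPM in gpc4 mutants. Wildtype embryos held 7.23 to 14.3 CPM and overlapped the dact1/2 mutants (log2 4.28 ± 0.39, adjusted p = 0.0031). The gene fgfrl1b, an FGF receptor-like protein that lacks the kinase domain, behaved alike, with 11.0, 17.0 and 16.6 CPM in dact1/2 mutants, 3.39, 2.52 and 2.79 CPM in gpc4 mutants and 12.7 to 19.0 CPM in wildtype embryos (log2 2.37, adjusted p = 0.0031). In the opposite direction, for p2rx3a, an ATP-gated cation channel, the levels were 15.6, 25.3 and 15.3 CPM in gpc4 mutants and 5.97, 6.79 and 6.93 CPM in dact1/2 mutants (log2 −1.45, adjusted p = 0.0178). For each of these 3 genes the mutants did not overlap, and the gpc4 mutants lay outside the wildtype range. At the higher resolution of clustering, a cluster of 209 cells was led by p2rx3a, and 168 of them came from gpc4 mutant replicate 2. No fit left out this cluster, but p2rx3a kept its call whenever 1 embryo was left out.

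Over the 26 called genes of chromosome 14, the wildtype range overlapped the dact1/2 mutants alone for 19 (73.1%), both mutants for 5 and the gpc4 mutants alone for 2. Among the 167 called genes elsewhere or without a chromosome, wildtype overlapped the dact1/2 mutants alone for 49 (29.3%), the gpc4 mutants alone for 49, both for 58 and neither for 11. Without wildtype replicate 1 the share with the dact1/2 mutants alone was 69.2% on chromosome 14 and 42.5% elsewhere. In embryos of a single mutant line, the loss of gpc4 and other differences carried on its chromosome cannot be told apart.

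**Figure D3:**
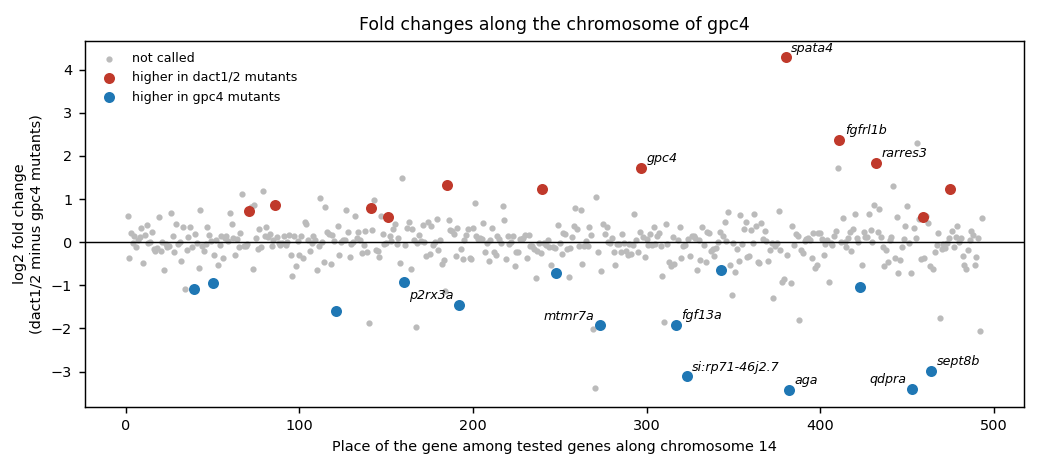
Log2 difference (dact1/2 mutants minus gpc4 mutants) of each tested gene of chromosome 14 against its place in the order of tested genes along the chromosome, with called genes in colour and some of them named. Called genes of both signs occur on both sides of gpc4, from 258 genes before it to 178 genes after it. The 6 called genes with an absolute log2 difference above 2 all lie after it, and uncalled differences of this size lie on both sides.

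On chromosome 17, lgals3b was the tested gene next to dact1. It encodes a galectin, a protein that binds β-galactosides, and stood at 22.8, 23.5 and 22.4 CPM in dact1/2 mutants and at 56.6, 53.8 and 48.0 CPM in gpc4 mutants. The difference was 2.22-fold (log2 −1.15 ± 0.13, adjusted p = 0.00683). Wildtype replicates 2, 3 and 4 held 16.2 to 30.7 CPM, around the level of the dact1/2 mutants, and wildtype replicate 1 held 89.7 CPM. The gene zp3, 71 genes from dact1, encodes a glycoprotein of the egg coat and stood at 14.7, 14.7 and 13.8 CPM in dact1/2 mutants, 2.51, 2.39 and 1.93 CPM in gpc4 mutants and 13.2 to 16.2 CPM in wildtype embryos (log2 2.70, adjusted p = 0.000916). It belongs to a family of similar genes, so its counts are uncertain.

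The gene capn8 (ENSDARG00000055715), a calcium-dependent cysteine protease of the calpain family, was higher in dact1/2 mutants. It stood at 36.2, 48.7 and 38.5 CPM in the dact1/2 mutants and at 16, 11.3 and 13.1 CPM in the gpc4 mutants. Each dact1/2 mutant exceeded each gpc4 mutant by more than a factor of 2, and the wildtype embryos, at 7.50 to 15.6 CPM, were near the gpc4 mutants. The difference was 3.13-fold (log2 1.65 ± 0.18, adjusted p = 0.00671).

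The genotypes separated for capn8 in most groups of cells but overlapped in others. Cells were grouped into 20 clusters, and 14 of them held at least 60 capn8 UMIs. In epidermis-like cells, where capn8 was highest in gpc4 mutants, dact1/2 mutants held 77.9, 58.4 and 41.9 CPM and gpc4 mutants 73.8, 47.7 and 58.4 CPM, which overlap. In heart field-like cells they held 94.2, 128 and 48.5 CPM against 2.53, 1.26 and 1.83 CPM, and in pronephros-like cells 126, 119 and 89.5 CPM against no UMI in any gpc4 mutant, which allows up to 2.58 CPM over the group. In these 2 clusters capn8 was thus high in every dact1/2 mutant and near 0 in every gpc4 mutant. The mean levels were 40.3 against 2.39 CPM in presomitic mesoderm-like cells, 129 against 2.56 CPM in adaxial-like cells and 69.1 against 5.67 CPM in notochord-like cells. Anterior neural-like cells held 11.1 against 7.34 CPM and spinal cord neuron-like cells 17.9 against 16.6 CPM. Separation was also seen outside mesoderm, but from few UMIs. Periderm-like cells held 52.5, 26.1 and 34.3 CPM against 13.75, 6.35 and 16.8 CPM, without overlap. These levels rest on 50 UMIs in dact1/2 mutants and 14 in gpc4 mutants, and gpc4 mutant replicate 3 had only 15 cells in this cluster. Cluster 19, unnamed and with foxi3b among its leading genes, had means of 151 against 36.6 CPM, from 31 and 20 UMIs. The anterior neural-like cluster had 2 markers of mid/hindbrain beside 2 of its own class among its 10 leading genes. No cluster took this name at a higher resolution. Its cells held 21137997 UMIs in dact1/2 mutants and 11478264 in gpc4 mutants. Low-complexity droplets, 185 of its 2037 cells, gave 13892078 of these UMIs. Levels in this cluster, also those of aga and emx3 below, rest in part on them. The groups did not overlap in 11 of the 14 clusters, each with dact1/2 mutants higher. These levels are descriptions, since the clusters were made from the same cells and some of the same genes.

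**Figure D4:**
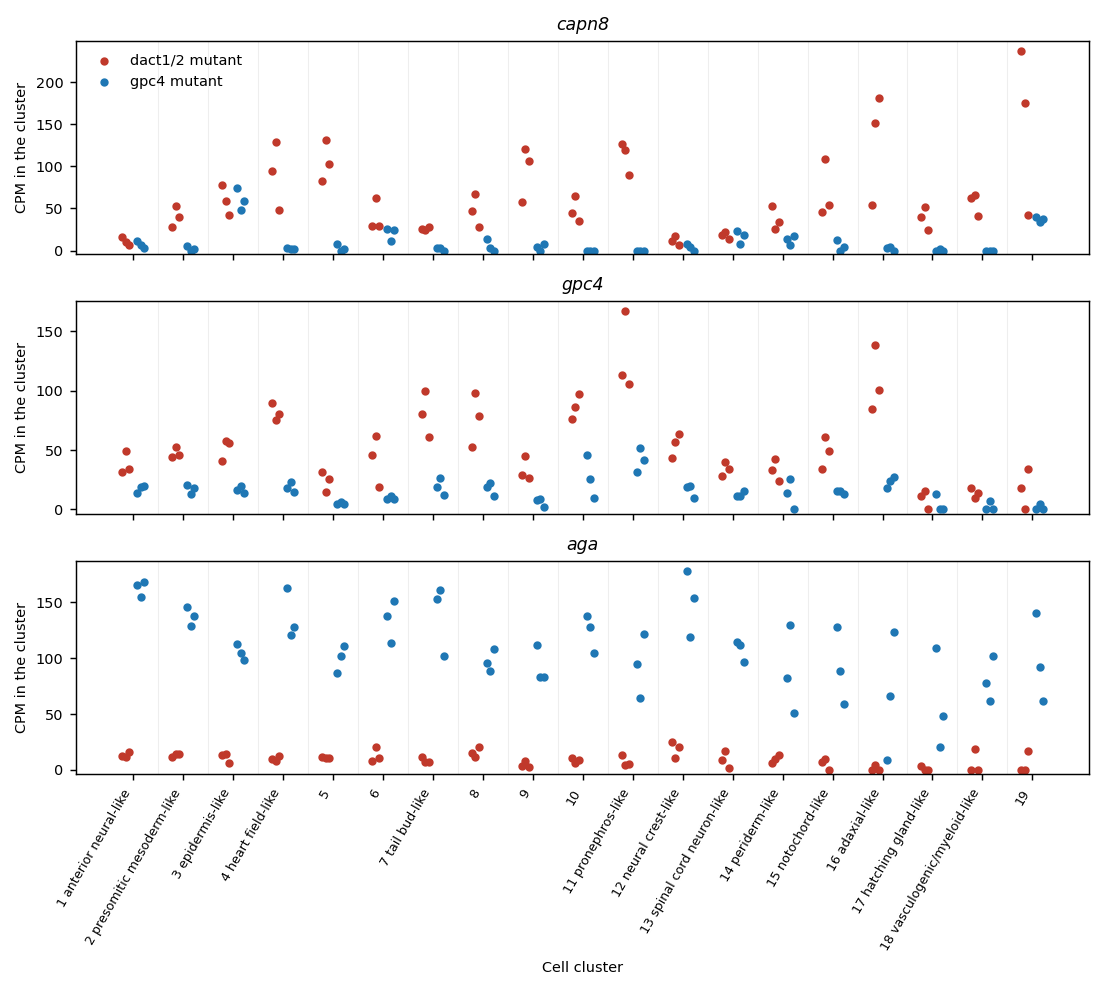
CPM of capn8, gpc4 and aga within clusters 1 to 19, each point 1 embryo, for dact1/2 mutants and gpc4 mutants; cluster 20 (30 cells) is left out. The level of capn8 overlaps between the genotypes in epidermis-like cells. It separates in mesodermal clusters such as heart field-like cells (48.5 to 128 against 1.26 to 2.53 CPM) and also, from only 50 and 14 UMIs, in periderm-like cells. RNA of aga is higher in gpc4 mutants in all clusters with at least 60 of its UMIs.

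Both aga and gpc4 differed in nearly all groups of cells. RNA of aga was higher in each gpc4 mutant in all 16 clusters that held at least 60 of its UMIs, with mean levels of 163 against 13.3 CPM in anterior neural-like cells and 105 against 11.3 CPM in epidermis-like cells. RNA of gpc4 was higher in each dact1/2 mutant in 15 of 16 clusters, and its mean level in pronephros-like cells was 129 against 41.7 CPM. When every embryo was given the same share of each cluster, all 36 called genes named by rule kept their direction, and the log2 ratio of the 2 genotypes moved by 0.43 at most and by 0.04 at the median.

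The calpain family was measured with 13 members, of which 1 was called higher in dact1/2 mutants and 2 were called higher in gpc4 mutants. Of all genes tested 0.69% and 0.641% were called in these directions. DESeq2 called 3 of the 13 (3.05% of all genes), and 5 had an unadjusted p under 0.05 by edgeR (13.1% of all). The median log2 difference was −0.313. RNA of capn12 was counted once in the 3 dact1/2 mutants together and 109 times in the gpc4 mutants, at 1.64, 1.73 and 5.10 CPM (adjusted p = 0.0194). The ratio of these counts was 146, with a 95% interval of 25.7 to 5838 that covers counting error only. Wildtype embryos ranged from 0.0977 to 8.48 CPM for capn12 and overlapped the gpc4 mutants. The lowest of them, wildtype replicate 1, was near the floor like the dact1/2 mutants, since 1 UMI is 0.0489 CPM in that embryo. The level of capn5a stood at 2.38, 3.82 and 1.90 CPM in dact1/2 mutants and 6.78, 9.37 and 5.87 CPM in gpc4 mutants (log2 −1.38 ± 0.26, adjusted p = 0.0704), with wildtype embryos between them at 4.69 to 5.67 CPM. The call for capn5a was lost without dact1/2 mutant replicate 1 or 3 and without gpc4 mutant replicate 1 or 2 (adjusted p = 0.128 to 0.206), and that for capn12 without dact1/2 mutant replicate 1 (adjusted p = 0.108). For capn9, which did not pass the test, the level was 40.6 CPM in gpc4 mutant replicate 1 and 7.33 to 11.7 CPM in the other 5 mutants. That embryo also had the highest summed level of periderm markers, 6016 CPM, in a range of 1339 to 6016 CPM in gpc4 mutants and 1681 to 1867 CPM in dact1/2 mutants.

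RNA of gpx1b, a glutathione peroxidase that reduces hydrogen peroxide, stood at 10.6, 12.6 and 13.4 CPM in dact1/2 mutants and at 4.86, 4.25 and 4.24 CPM in gpc4 mutants. The gpc4 mutants lay within the wildtype range of 3.34 to 6.40 CPM and the dact1/2 mutants above it (log2 1.5 ± 0.17, adjusted p = 0.00713). It was the only 1 of 30 measured redox enzymes to pass the test, which 1.33% of all genes tested passed. DESeq2 called 1 of the 30 (3.05% of all genes), and 5 had an unadjusted p under 0.05 by edgeR (13.1% of all). The median of the list was −0.012.

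Other named genes that were higher in dact1/2 mutants were plgrkt, a plasminogen receptor, crygn2, a crystallin of the lens family, and DHRS11, a short-chain dehydrogenase. RNA of plgrkt stood at 11.5, 11.3 and 12.1 CPM against 2.40, 3.79 and 3.56 CPM (log2 1.92, adjusted p = 0.00432), with wildtype embryos at 10.2 to 16.8 CPM. RNA of crygn2 stood at 20.1, 18.4 and 15.7 CPM against 3.22, 2.59 and 2.79 CPM (log2 2.70, adjusted p = 0.0015), and wildtype embryos, at 4.53 to 12.2 CPM, fell between the mutants. DHRS11 stood at 16.2, 14.9 and 14.8 CPM against 1.48, 2.99 and 1.16 CPM (log2 3.08), while wildtype embryos spread from 0.537 to 13.9 CPM. For all 3 the mutant groups were narrow and far apart, whereas the wildtype level of DHRS11 differed from embryo to embryo. BX511021.1 was at 12.8, 8.33 and 13.4 CPM in dact1/2 mutants and had no UMI in any gpc4 mutant, so it was at least 166-fold higher when the floor is 3 counts over the group. Wildtype embryos had 0, 0.147, 10.2 and 18 CPM of it. The remaining genes of this rank were si:ch211-149k12.3, zgc:65851, CR385053.3, si:ch211-208h16.4, si:dkey-22l11.6 and si:ch211-11n16.3, to which the annotation gives no name of function.

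Among genes higher in gpc4 mutants, hist1h4l, a histone H4 gene, was at 20, 79.1 and 77.5 CPM in gpc4 mutants and 3.66, 7.24 and 4.86 CPM in dact1/2 mutants. Gpc4 mutant replicate 1 was thus well below the other gpc4 mutants but still above every dact1/2 mutant and every wildtype embryo, at 2.49 to 7.04 CPM (log2 −3.41 ± 0.48, adjusted p = 0.0227). Histone H4 genes are near-identical copies, so their counts cannot be assigned with certainty, and the call was lost without dact1/2 mutant replicate 1 or 3 (adjusted p = 0.104 and 0.1). The gene adcyap1r1a, the receptor of the neuropeptide PACAP, was lower in dact1/2 mutants (log2 −3.30, adjusted p = 0.0117), and so was amy2a, a pancreatic amylase with similar copies (log2 −4.96, adjusted p = 0.0194), whose call was lost without dact1/2 mutant replicate 2 (adjusted p = 0.101). RNA of si:ch211-271g18.4 was counted 1 time in dact1/2 mutants and 86 times in gpc4 mutants (ratio 116, 95% interval 20.2 to 4617), and its call was lost without dact1/2 mutant replicate 1 or 2 (adjusted p = 0.104 and 0.106). The other genes of this rank were si:dkey-9c18.3, BX927081.1, BX649516.4, si:dkey-30f3.2 and si:dkeyp-35e5.10, again without a name of function.

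Genes of the forebrain were examined next. Of 19 measured genes of the eye field and forebrain, emx3 alone passed the test by edgeR, with dact1/2 mutants higher. Among all genes tested 1.33% passed in either direction. The median log2 difference of the list was 0.237. DESeq2 called 3 of the 19 (3.05% of all genes), and 6 had an unadjusted p under 0.05 by edgeR (13.1% of all). RNA of emx3, a homeobox gene of the dorsal forebrain, stood at 21.4, 22.6 and 15.8 CPM in dact1/2 mutants and 8.85, 9.37 and 8.37 CPM in gpc4 mutants. Wildtype embryos held 15.2 to 23.6 CPM, at the level of the dact1/2 mutants (log2 1.23 ± 0.17, adjusted p = 0.0208). It is also among the called genes of chromosome 14. In anterior neural-like cells alone it stood at 29.8, 42.7 and 29.5 CPM against 11.6, 16.6 and 13.7 CPM. Its level was higher in spinal cord neuron-like cells, with means of 56.5 against 22.4 CPM. The genes lhx5, otx1 and otx2b, transcription factors of the anterior brain, did not overlap between the mutants either, with log2 differences of 0.68, 0.52 and 0.60, but their adjusted p-values were 0.111, 0.141 and 0.153. Over the list, 4 genes were higher in each dact1/2 mutant without overlap (5.95% of all genes tested) and 0 in each gpc4 mutant (10.7% of all).

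The anterior neural-like cells did not overlap in their share of cells. They made up 21.7%, 22.9% and 16.4% of dact1/2 mutant cells and 16.3%, 15.3% and 11.8% of gpc4 mutant cells. The closest pair of embryos differed by less than 0.1 percentage points, and 3 embryos against 3 cannot give an exact permutation p below 0.1, which was reached (two-sided, adjusted p = 0.5 over 20 clusters). The cluster held 2 markers of mid/hindbrain beside 2 of the anterior neural class among its 10 leading genes. Without the cells of the cluster that came mostly from 1 embryo, these shares overlapped. Summed mid/hindbrain markers did not overlap, at 244.0 to 292.6 CPM in dact1/2 mutants and 172.2 to 217.7 CPM in gpc4 mutants. Among the 20 classes examined no other sum was apart, and no test was made of these sums. The summed anterior neural markers, at 304 to 402 and 248 to 325 CPM, overlapped. None of the single markers of these classes was called.

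**Figure D5:**
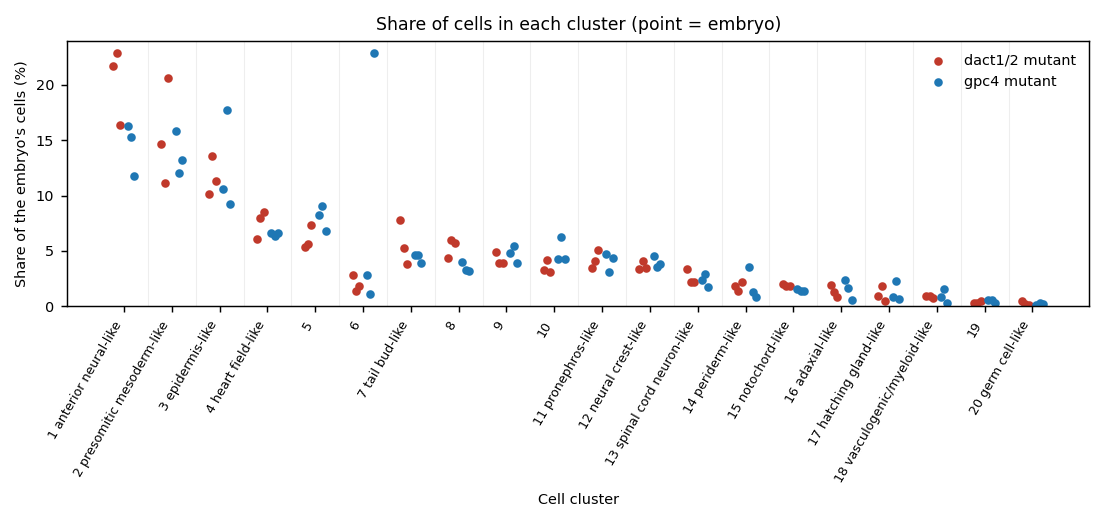
Percentage of each embryo's cells in each of the 20 clusters, each point 1 embryo, for dact1/2 mutants and gpc4 mutants. The genotypes do not overlap in clusters 1, 8, 10 and 15, by less than 0.1 percentage points in cluster 1, and 1 gpc4 mutant has 22.9% of its cells in cluster 6.

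Of the other clusters, 3 did not overlap between the genotypes. Cluster 8, unnamed and led by mcama, foxa1 and fgfrl1b, made up 5.37% ± 0.86 (SD, n = 3) of dact1/2 mutant cells and 3.53% ± 0.45 (n = 3) of gpc4 mutant cells. Notochord-like cells made up 1.90% and 1.45%, and cluster 10, unnamed and led by foxl2a and pitx3, made up 3.52% and 4.94%. Each of these reached the smallest exact permutation p of 0.1 and an adjusted p of 0.5, so none passed a threshold, and 16 of the 20 clusters overlapped.

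The lists of noncanonical Wnt ligands, of planar cell polarity and noncanonical Wnt receptors and of canonical Wnt targets gave no call by edgeR. Other Wnt ligands were not in these lists. Among them wnt8b was called higher in dact1/2 mutants (log2 0.71), and wildtype embryos overlapped both mutants. For comparison, DESeq2 called 442 (3.05%) of all genes tested, and 1898 (13.1%) had an unadjusted p under 0.05 by edgeR. Of 4 measured noncanonical Wnt ligands 0 were called by edgeR, 0 by DESeq2 and 0 had an unadjusted p under 0.05. RNA of wnt11 stood at 48.9, 39.3 and 38.3 CPM against 31.4, 36.8 and 39.2 CPM (log2 0.31 ± 0.16), and wnt11f2 and wnt5b, the ligands of gastrulation movements in zebrafish, differed by 0.39 ± 0.26 and −0.20 ± 0.15. The values of all 3 overlapped between the genotypes. Of 26 measured receptors and core components of planar cell polarity 0 were called by edgeR and 1 by DESeq2, 2 had an unadjusted p under 0.05, and the median was 0.062. The gene vangl2, a core component, differed by 0.04 (44.8, 50.7 and 44.4 against 42.7, 49.7 and 49.2 CPM), the co-receptors ror2 and ptk7a by 0.09 and 0.07, and the receptors fzd7a and fzd7b by 0.11 and 0.22. The lowest adjusted p of the list was 0.169, for 1 of the 2 genes annotated as celsr2.

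Neither edgeR nor DESeq2 called any of 20 targets of canonical Wnt signalling (median 0.132, 0 with an unadjusted p under 0.05). The same was true of 25 genes of heparan sulfate synthesis, which build the sugar chains of glypicans (median 0.048, 2 with an unadjusted p under 0.05). Of the 5 measured glypicans gpc4 alone was called. The levels of gpc1a and gpc2 differed by 0.53 and 0.60 at levels below 2 CPM, with adjusted p-values of 0.572 and 0.627. Of the dact family 3 members were measured and dact1 alone was called. A missed threshold does not show that such scarce genes are at the same level. In simulated counts of the same libraries, 64% of genes changed by 1 on the log2 scale and 93% of those changed by 2 were recovered. The changed genes were drawn from all genes tested, so these shares do not give the recovery of scarce genes.

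Of the further signalling lists, hedgehog (18 genes), BMP and Nodal (38) and segmentation (28) had no member called by edgeR. An unadjusted p under 0.05 was found for 0, 8 and 2 of these genes, and DESeq2 called 0, 2 and 0. RNA of smad1, an effector of BMP receptors, stood at 21.3, 32.2 and 30.9 CPM against 30.0, 36.2 and 30.6 CPM, which overlapped (log2 −0.15, adjusted p = 0.706). Of 24 FGF genes 1 was called by edgeR, beside 1.33% of all genes tested. This gene, fgf24, a ligand needed for the zebrafish pectoral fin bud, was higher in gpc4 mutants. It stood at 8.20, 8.97 and 9.14 CPM against 4.19, 4.46 and 4.53 CPM (log2 −0.94 ± 0.15, adjusted p = 0.0392). Both groups were narrow, and wildtype replicates 2, 3 and 4 held 4.53 to 5.91 CPM, near the dact1/2 mutants. The gene lies on chromosome 14, 247 genes from gpc4, and its call was lost when any of the 3 dact1/2 mutants was left out (adjusted p = 0.109 to 0.145).

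The embryonic globins, which carry oxygen in primitive red cells, had a median difference of −0.93 over 10 measured genes, and 6 of them were higher in each gpc4 mutant without overlap, as were 10.7% of all genes tested. Another 2 were higher in each dact1/2 mutant, as were 5.95% of all. By edgeR hbbe1.3 alone passed the test (DESeq2 called 6 of the 10 and 3.05% of all genes), at 22.7, 37.5 and 24.4 CPM in gpc4 mutants and 10.6, 7.04 and 13.9 CPM in dact1/2 mutants (log2 −1.35, adjusted p = 0.0853), and its call was lost whenever any 1 embryo was left out. Most of its UMIs were in cluster 5, led by hbbe3, lmo2 and tal1, which are genes of the blood lineage. There gpc4 mutants held 252, 438 and 256 CPM and dact1/2 mutants 175, 62.5 and 88.5 CPM, which did not overlap. Cluster 5 made up 5.38% to 7.33% of dact1/2 mutant cells and 6.76% to 9.07% of gpc4 mutant cells. Without the cells of the cluster that came mostly from 1 embryo these shares did not overlap, at 5.53% to 7.47% and 8.49% to 9.17% (exact permutation p = 0.1, adjusted p = 0.475), and the part of this share in the globin levels of whole embryos was not tested. In turn, hbbe1.1 and hbae1.1 went the other way, with differences of 1.70 and 1.26 and adjusted p-values of 0.119 and 0.1. Globin genes are close copies of each other, and how reads were split among them is uncertain.

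Several lists without a gene called by edgeR had a median away from that of all genes. DESeq2 called 2 intermediate filament genes, 2 annexins or S100 proteins, 0 targets of p53, 1 mitochondrial gene and 0 yolk markers, and 7, 5, 7, 5 and 1 of these genes had an unadjusted p under 0.05. Intermediate filaments, among them the keratins of periderm, had a median of −0.459 over 24 genes and a summed level of 2334 to 7656 CPM in gpc4 mutants against 2681 to 2819 CPM in dact1/2 mutants, the highest value being that of gpc4 mutant replicate 1. Annexins and S100 proteins had a median of −0.416 over 22 genes, with the same embryo highest at 807.0 CPM against 376.4 to 441.8 CPM in the other 5. Targets of p53 had a median of −0.298 over 17 genes. Of them 8 did not overlap, with gpc4 mutants higher, as for 10.7% of all genes tested. These included mdm2 and ccng1, a gene of chromosome 14. In the reverse direction 1 was apart, as for 5.95% of all. The summed level of p53 targets was 1031 to 1253 CPM in gpc4 mutants and 828 to 957 CPM in dact1/2 mutants. Genes encoded in the mitochondria had a median of 0.274 over 13 genes, with 6 higher in each dact1/2 mutant, as were 5.95% of all genes tested. Yolk markers had a median of 0.868 over 8 genes, although their summed level overlapped and tended the other way, at 1169 to 1980 CPM in dact1/2 mutants and 1675 to 2596 CPM in gpc4 mutants. Heat shock genes (27), cell cycle genes (40), hox genes (42) and cytosolic ribosomal proteins (91) had medians of 0.049, 0.035, −0.047 and 0.13 and no gene called by edgeR, with 6, 2, 2 and 3 genes at an unadjusted p under 0.05 and 0, 0, 1 and 0 called by DESeq2. Proteases other than calpains (33 genes), matrix and integrin genes (32) and immediate early genes (22) also had no gene called by either tool. Their medians were −0.067, −0.075 and −0.239, with 2, 3 and 6 genes at an unadjusted p under 0.05. As with the p53 targets, 7 immediate early genes and 8 hox genes were higher in each gpc4 mutant without overlap, and 0 of either list in each dact1/2 mutant.

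The genes hspb1, a small heat shock protein, and mdkb, the growth factor midkine b, were followed as abundant stress and growth genes. RNA of hspb1 stood at 1830, 1191 and 1602 CPM in dact1/2 mutants and 1501, 1430 and 1993 CPM in gpc4 mutants, and mdkb at 170, 156 and 155 against 200, 143 and 149 CPM. Both overlapped, with log2 differences of −0.02 and 0.01 and adjusted p-values of 0.984 and 0.988. Wildtype replicate 1 was far above all mutants for both genes, at 4646 and 347 CPM, while wildtype replicates 2, 3 and 4 were below them, at 872 to 937 and 72.3 to 92.8 CPM.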

How the data were processed

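Single cells of 10 whole embryos were captured with 10x 3′ chemistry. The authors aligned the reads with Cell Ranger 6.1.0 to GRCz11 and deposited raw counts of UMIs per gene and cell for each embryo, without normalization. Groups and replicate numbers came from the sample labels. Each embryo is its own library, and p-values measure the spread between embryos.

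Kept cells had 1500 UMIs or more, 750 genes or more and under 5% mitochondrial UMIs. A further criterion of the methods (the complexity ratio above 0.8) was an alternative. UMIs were summed per embryo and compared with the quasi-likelihood test of edgeR 4.0.16 (R 4.3.3, TMM scaling, filterByExpr), fitted to the 6 mutants only, with Benjamini-Hochberg adjustment over all genes tested. Log2 differences are dact1/2 mutants minus gpc4 mutants, and their standard errors were derived from the F statistic. The authors' methods name DESeq2 with apeglm, which were run as alternatives (DESeq2 1.42.0, apeglm 1.24.0). The remaining alternatives were other scaling and count filters, all deposited droplets, removal of the 2% of cells with most UMIs, wildtype embryos in the fit, a replicate block, a stricter threshold of 0.05 and each embryo left out. Leaving out the cluster of 1 embryo was chosen after seeing the data.

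Cells of the 6 mutant embryos, without wildtype, were clustered on Pearson residuals of 3000 variable genes (40 principal components, Leiden resolution 0.3). The mean of each embryo was removed first, and clusters were named from marker lists. Doublets were not removed other than by the alternative above. Shares of cells were compared with a two-sided exact permutation test.

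Named genes are dact1, dact2, gpc4, capn8, smad1, gpx1b, hspb1, mdkb, called list members, and in each direction the 15 genes of smallest p among those called, not overlapping and with at least 60 UMIs, 40 genes in all, of which 1 is not reported here. The genes, lists and comparisons were chosen with earlier results of these data known. Chromosomes and gene order came from a RefSeq table of assembly GRCz12tu, and no positions are given because the counts rest on GRCz11. Of the gene symbols in the files, 530 belong to more than 1 gene ID. Counts give precision: intervals and floors (3 counts) cover counting error only. The test was tried on simulated counts of the same 14499 genes, where 18 unchanged genes were called.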

Additional observations from a re-analysis of the deposited data

Results flagged for a closer look

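Among the 4 wildtype embryos, replicate 1 stood far from the other 3 for 12 of the 40 named genes, by a test of the gap to the nearest embryo against the whole range. Such a test marks about 1 in 20 groups when nothing is unusual, and the 12 genes come from 1 embryo and are not independent of each other. Wildtype embryos were not in the fit of the mutants, so these values touch only the statements on where wildtype lay.

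Wildtype replicate 1 was high for hspb1 (4646 CPM, the others 872 to 937), mdkb (347 CPM, the others 72.3 to 92.8), zgc:65851 (53.4 CPM, the others 4.35 to 4.85), qdpra (22.3 CPM, the others 3.53 to 4.74) and fgf24 (13.2 CPM, the others 4.53 to 5.91). It was also high for si:dkeyp-35e5.10 (10 CPM, the others 1.49 to 2.8), si:dkey-30f3.2 (7.62 CPM, the others 0.606 to 1.04), BX649516.4 (5.86 CPM, the others 0.418 to 0.909), si:ch211-271g18.4 (5.57 CPM, the others 0.139 to 0.204) and amy2a (1.76 CPM, the others 0 to 0.0697).

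It was low for si:ch211-149k12.3 (1.27 CPM, the others 8.69 to 9.09) and had no UMI of si:ch211-208h16.4 (0 CPM, the others 3.26 to 3.48). For qdpra and fgf24, both on chromosome 14, this embryo lay toward or above the gpc4 mutants while the other wildtype embryos lay with the dact1/2 mutants. What sets this embryo apart was not tested.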

How the results depend on the processing

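The 193 called genes (100 higher in dact1/2 mutants, 93 higher in gpc4 mutants) became 343 (167 and 176) with no filter on low counts, 442 (209 and 233) with DESeq2, 326 (163 and 163) with DESeq2 and apeglm, 407 (199 and 208) with 9 embryos in the fit (all but wildtype replicate 1), 40 (26 and 14) with all 10 embryos and 81 (49 and 32) at an adjusted p under 0.05. The further criterion on cells, a complexity ratio above 0.8, gave 288, of which 140 and 148. Leaving out 1 embryo gave 67 to 163 genes (42 to 75 and 20 to 88), lowest without dact1/2 mutant replicate 2, of which 59 to 106 were among the 193. DESeq2 shared 190 of the 193 genes, DESeq2 with apeglm 172 and the further criterion 178. Scaling, the stricter count filter, all droplets, removal of the 2% of cells with most UMIs and removal of the cluster of 1 embryo (chosen after seeing the data) kept the count between 173 and 252. The cause of these shifts was not tested, except that fewer embryos or more genes tested are part of how some settings are made.

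The replicate numbers of the 2 genotypes do not pair embryos by any label, and same-numbered embryos deviated together with correlations of 0.3053, 0.2682 and 0.074, each embryo correlating best with its own number. With a replicate block 576 of 14499 genes were called (256 higher in dact1/2 mutants and 320 higher in gpc4 mutants), including all 193. Some lists without a call by edgeR above then had calls. These were 4 of 22 annexins and S100 proteins, 3 of 38 BMP and Nodal genes, 3 of 38 muscle genes and 2 of 24 intermediate filaments. The planar cell polarity, heat shock, hox and mitochondrial lists had 1 each.

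Of the 40 named genes, none turned direction as a called gene. Of the 36 called, 28 kept their call in all 6 fits that left out 1 embryo and 13 under every setting, and the fit of all 10 embryos lost 20. The log2 difference of dact1 was −1.17 and not past an adjusted p of 0.05, and it was −1.03 to −1.26 without 1 embryo. Uncalled differences near 0 changed sign, with hspb1 at 0.04 without the cluster of 1 embryo and at −0.23 to 0.18 without 1 embryo, and mdkb at −0.12 to 0.24 without 1 embryo. Depth limits what can be seen of scarce genes, and 1 UMI is 0.0378 to 0.0963 CPM in these embryos.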

Other observations

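A few called genes of contractile cells fell outside the muscle list, and they were picked with their values in view. Of the 38 measured members of that list, edgeR and DESeq2 called 0, and 5 had an unadjusted p under 0.05 by edgeR. With a replicate block edgeR called 3 of the 38, beside 576 of all 14499 genes tested. RNA of cmlc1, a myosin light chain of the heart, stood at 2.84, 6.18 and 3.56 CPM in gpc4 mutants and at 1.28, 0.595 and 0.412 CPM in dact1/2 mutants (log2 −2.25, adjusted p = 0.0853). RNA of myh7, a myosin heavy chain, stood at 3.12, 7.84 and 5.49 CPM against 1.09, 0.843 and 1.90 CPM (log2 −2.06, adjusted p = 0.0704), and mb, myoglobin, at 2.41, 1.86 and 1.44 CPM against 0.529, 0.397 and 0.247 CPM (log2 −2.15, adjusted p = 0.062). RNA of rbfox1l, a splicing factor of muscle, stood at 35.5, 29.2 and 17.5 CPM against 10.1, 8.58 and 11.0 CPM (log2 −1.43, adjusted p = 0.0704). In all 4 genes every gpc4 mutant exceeded every dact1/2 mutant, and wildtype embryos overlapped the dact1/2 mutants or both. The summed level of the muscle list overlapped, at 1977 to 3300 CPM in gpc4 mutants and 1965 to 2613 CPM in dact1/2 mutants.

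Signalling genes outside the lists that were higher in gpc4 mutants included bmp6, a BMP ligand, at 19.3, 30.1 and 31.4 CPM against 12.2, 14 and 15 CPM (log2 −0.91, adjusted p = 0.069), and jag2a, a Notch ligand, at 1.37, 1.59 and 1.44 CPM against 0.302, 0.545 and 0.412 CPM (log2 −1.76, adjusted p = 0.0623). Wildtype embryos, at 10.9 to 15.4 CPM of bmp6 and 0.244 to 0.766 CPM of jag2a, overlapped the dact1/2 mutants and not the gpc4 mutants. RNA of fthl31, a ferritin gene with close copies, stood at 94.8, 150 and 153 CPM in dact1/2 mutants and at 40.9, 20.5 and 21.8 CPM in gpc4 mutants (log2 2.27, adjusted p = 0.0208). Its wildtype level spread from 24.9 to 154 CPM, over nearly the range of both mutants.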
